A study of Mus musculus with 9 samples.

Results

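Cathepsins are the proteases of the lysosome, and transcripts of 10 of them, Ctsa, Ctsb, Ctsc, Ctsd, Ctsf, Ctsh, Ctsk, Ctsl, Ctss and Ctsz, were followed across a mouse glioblastoma grown in a gel, on a dish and in the brain. They were chosen by name, as 10 of the 20778 gene symbols in the table of RNA sequencing values. All 10 passed the filter on low values (a mean over all libraries of 10 or more), as did 13773 symbols in all. The 9 libraries form 3 groups of 3. In the 3D bioink, GL261 cells labelled with mCherry were grown in a fibrin gel together with endothelial cells, pericytes, microglia and astrocytes freshly taken from the brains of male C57BL/6 mice aged 6 to 10 weeks. In the 2D culture the same mixture of cells was grown on a petri dish. For the tumours, which the labels call the control, 50000 labelled GL261 cells were implanted in the striatum of male, immunocompetent C57BL/6 mice aged 7 weeks (5 mice), and the brains were resected on day 14. GL261 is a glioma cell line of C57BL/6 origin. In both cultures it was seeded at 1000000 cells per ml in a fixed ratio to the other cells, which the labels give without saying which figure belongs to which cell. The primary cells were separated with magnetic beads against CD11b (microglia), CD31 (endothelial cells) and AN2 with CD144 (pericytes), and the cells that remained were used as astrocytes. The labels do not say whether the 3 libraries of a group came from separate mice or cultures, so the p-values below rest on a spread that may be purely technical.

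Cathepsins are made as inactive proenzymes, tagged with mannose 6-phosphate in the Golgi, carried to endosomes and lysosomes by mannose 6-phosphate receptors, and activated there by removal of the propeptide at acid pH. Most of the members here are cysteine proteases of the papain family (Ctsb, Ctsc, Ctsf, Ctsh, Ctsk, Ctsl, Ctss and Ctsz); Ctsd is an aspartic protease and Ctsa a serine carboxypeptidase. Cystatins and stefins inhibit the cysteine cathepsins. In brain tumours, macrophages and microglia are known as rich sources of several of them, Ctss above all, and secreted cathepsins can cut extracellular matrix.

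Every value below is a deposited normalised count, rounded to a whole number by the authors. A log2 fold change is the difference between the means of log2(value + 1), given with its standard error (SE), and its adjusted p is that of limma's moderated test after Benjamini-Hochberg adjustment over the 13773 genes tested. A gene was called when that adjusted p was under 0.05. The deposited values of a library summed to between 13548461 and 13683978 in the 3D bioink, 15572800 and 15711632 in the 2D culture, and 16320090 and 16388074 in the tumours. Over the genes tested, correlations between libraries lay between 0.927 and 0.963 within the 3D bioink, 0.968 and 0.970 within the 2D culture and 0.940 and 0.943 within the tumours. Digestion of the sample (3 h in 600 U per ml collagenase II, then a 70 µm mesh) is recorded for the 3D bioink alone, so its effect and that of the gel cannot be told apart.

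The 10 genes together made up 0.185% to 0.204% of all deposited values in the 3D bioink, 0.114% to 0.118% in the 2D culture and 0.656% to 0.688% in the tumours. Against the tumours, 7 cathepsins were lower in the 3D bioink (Ctss, Ctsc, Ctsh, Ctsz, Ctsd, Ctsb, Ctsa), 2 were higher (Ctsk, Ctsl) and Ctsf was not called, where 37.3% of all genes tested were called lower and 27.1% higher (64.4% in all). In the 2D culture against the tumours, 9 were lower and Ctsk alone was higher, beside 27.0% and 27.3% of all genes (54.3% in all). Between the cultures, 9 were higher in the 3D bioink than in the 2D culture and Ctsz alone was lower, beside 27.0% and 32.2% of all genes (59.2% in all). The median log2 fold change of the 10 was -1.56 in the 3D bioink against the tumours (-0.11 over all genes), -2.00 in the 2D culture against the tumours (0.01 over all genes) and 0.78 in the 3D bioink against the 2D culture (-0.02 over all genes). The first pair of these comparisons share the tumour libraries. The split of all genes depended on the scaling: 3737 were higher and 5132 lower in the 3D bioink against the tumours as deposited and 4906 and 3816 with equal totals, and in the 3D bioink against the 2D culture these were 3713 and 4435 as deposited and 4834 and 3193 with equal upper quartiles. In the 2D culture against the tumours they were 3761 and 3713 as deposited and 4489 and 3058 after quantile normalisation. These scalings moved the median of all genes to 0.15, 0.20 and 0.18 in the same order. No cathepsin's groups overlapped in any of the 3 comparisons, beside 67.6%, 63.9% and 67.1% of all genes without overlap.

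**Figure D1:**
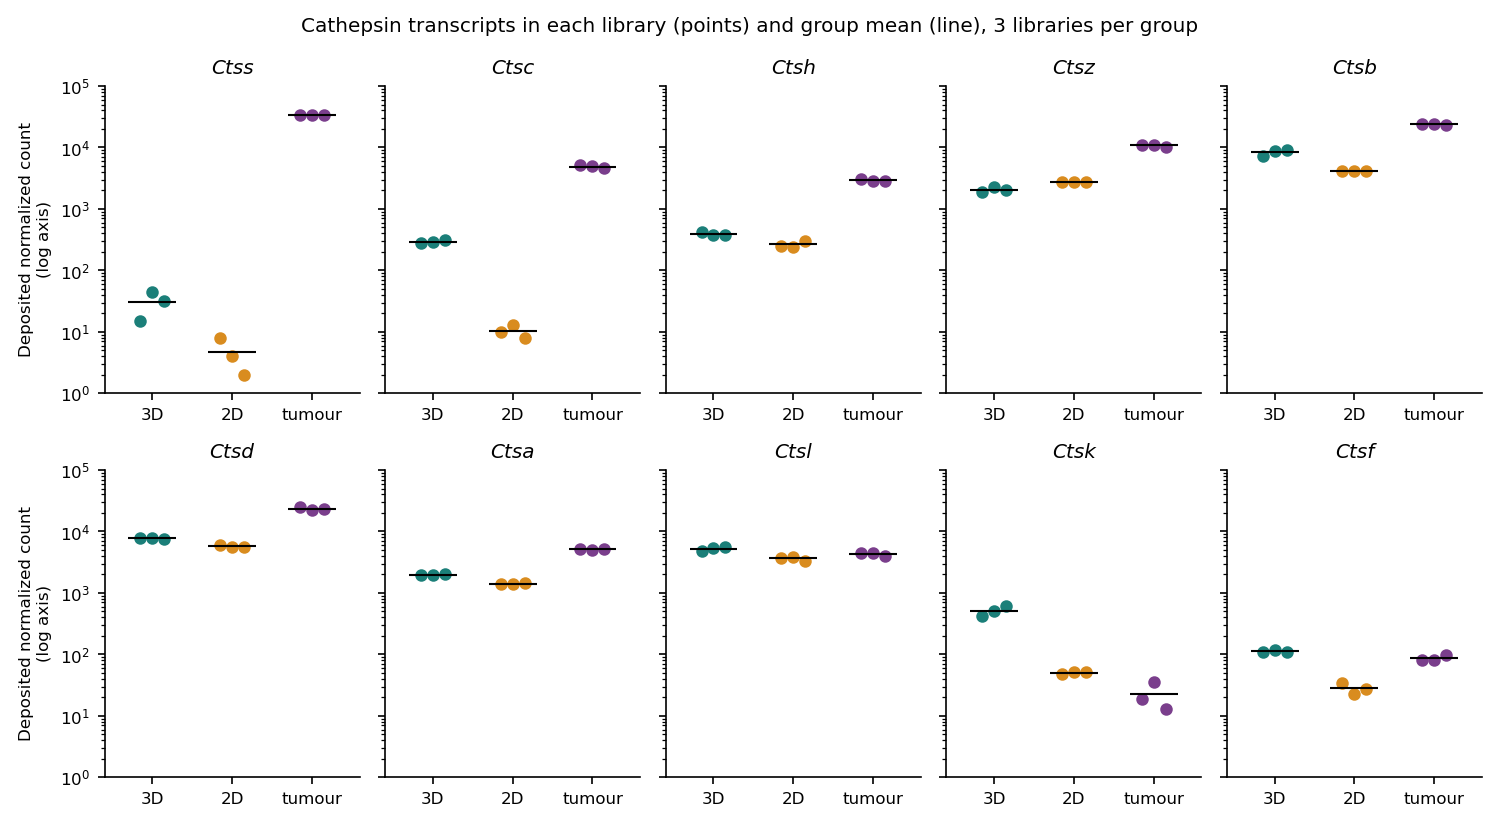
Deposited normalised count of each cathepsin in every library (log axis), with the 3D bioink left of the 2D culture and the tumours at the right, and a line at each group's mean. Ctss covers the widest range, with 15 to 44 in the 3D bioink, 2 to 8 in the 2D culture and 34029 to 34283 in the tumours, and Ctsk runs the other way, with 420 to 618 in the 3D bioink, 48 to 52 in the 2D culture and 13 to 36 in the tumours.

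Ctss, the cathepsin of antigen-presenting cells that trims the invariant chain off MHC class II, had the largest difference of the 10. It had 15, 44 and 32 in the 3D bioink, 8, 4 and 2 in the 2D culture, and 34086, 34029 and 34283 in the tumours. By deposited value it ranked 27 to 28 of all genes in the tumours, 11386 to 12966 in the 3D bioink and 12976 to 14243 in the 2D culture. These ranks are not corrected for transcript length, so they do not compare the abundance of different genes. The group mean was 1125-fold lower in the 3D bioink than in the tumours (log2 fold change -10.21, SE 0.43, adjusted p = 4.92e-08) and 7314-fold lower in the 2D culture than in the tumours (-12.70, SE 0.43, adjusted p = 9.06e-09). Between the cultures it was higher in the 3D bioink (2.49, SE 0.43, adjusted p = 0.000728), on values so low that a pseudocount of 10 in place of 1 brought the log2 fold change to 1.41. Without replicate 1 of the 2D culture, the mean of Ctss there was 11378-fold lower than in the tumours, and its mean in the 3D bioink was 10.1-fold higher than in the 2D culture in place of 6.50-fold. The gene lies at chromosome 3, 95526786 to 95556403 (GRCm38, plus strand, 8 exons).

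Ctsc, also called dipeptidyl peptidase I, which activates the granule serine proteases of leukocytes, differed between all 3 groups by more than 10-fold. It had 276, 293 and 315 in the 3D bioink, 10, 13 and 8 in the 2D culture, and 5151, 4967 and 4597 in the tumours. The 3D bioink held 28.5 times the mean of the 2D culture (log2 fold change 4.73, SE 0.16, adjusted p = 2.67e-08), the largest difference between the cultures among the 10. It was 16.6-fold lower than in the tumours (-4.05, SE 0.16, adjusted p = 3.84e-08), while the 2D culture was 475-fold lower than the tumours (-8.78, SE 0.16, adjusted p = 2.39e-10). Ctsc lies at chromosome 7, 88278085 to 88310888 (plus strand, 7 exons).

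Ctsh, an aminopeptidase of the papain family, had 423, 378 and 373 in the 3D bioink, 252, 244 and 301 in the 2D culture, and 3062, 2896 and 2884 in the tumours. It was 7.53-fold lower in the 3D bioink (log2 fold change -2.91, SE 0.10, adjusted p = 1.05e-08) and 11.1-fold lower in the 2D culture (-3.47, adjusted p = 2.41e-09) than in the tumours. The cultures stood closer to each other than either did to the tumours, with the 3D bioink 1.47-fold above the 2D culture (0.56, adjusted p = 0.000692). Ctsh lies at chromosome 9, 90054152 to 90076089.

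Most markers of microglia, macrophages and monocytes were also lower in both cultures than in the tumours. Of all genes tested, 37.3% were called lower in the 3D bioink and 27.0% in the 2D culture. Some markers, such as Ptprc, Adgre1 and Fcrls, passed the filter only through the tumours, so the filter itself favoured a lower call for them. Of 12 microglial markers, 11 were lower and 1 was not called in the 3D bioink against the tumours, and the same counts held for the 2D culture against the tumours. Their summed values ran from 1562 to 1658 in the 3D bioink, 936 to 1044 in the 2D culture and 20379 to 21317 in the tumours. Fcrls was listed at 0 in every 3D bioink library and P2ry13 in every 2D culture library. Of 12 macrophage and monocyte markers, 11 were lower in the 3D bioink and all 12 in the 2D culture, with sums of 774 to 956 in the 3D bioink, 256 to 301 in the 2D culture and 38171 to 39466 in the tumours. Ly6c2 was listed at 0 in all 6 culture libraries and Adgre1 in the 3 of the 2D culture. The pan-leukocyte gene Ptprc had 0, 6 and 6 in the 3D bioink, 1, 2 and 4 in the 2D culture, and 393, 361 and 378 in the tumours. Csf1r, the receptor on which microglia depend, had 39, 59 and 47 in the 3D bioink, 21, 21 and 14 in the 2D culture, and 7306, 7194 and 7026 in the tumours. Of 5 dendritic cell markers tested, 2 were lower, 1 was higher and 2 were not called in the 3D bioink against the tumours, and 4 were lower and 1 not called in the 2D culture against the tumours. Of 5 T and NK cell markers tested, 3 were lower and 2 not called in the 3D bioink, and 5 lower in the 2D culture. Of 2 neutrophil markers tested, 1 was lower and 1 not called in each culture. Of 2 B cell markers, 2 were not called in the 3D bioink, and 1 was lower and 1 not called in the 2D culture. Of 6 endothelial markers, 2 were higher, 2 lower and 2 not called in the 3D bioink, and 1 higher, 3 lower and 2 not called in the 2D culture. Both cultures were seeded with CD11b-selected microglia. In these bulk samples, fewer cells of a type and less RNA per cell cannot be told apart, and the part of these markers in the cathepsin differences was not tested.

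**Figure D2:**
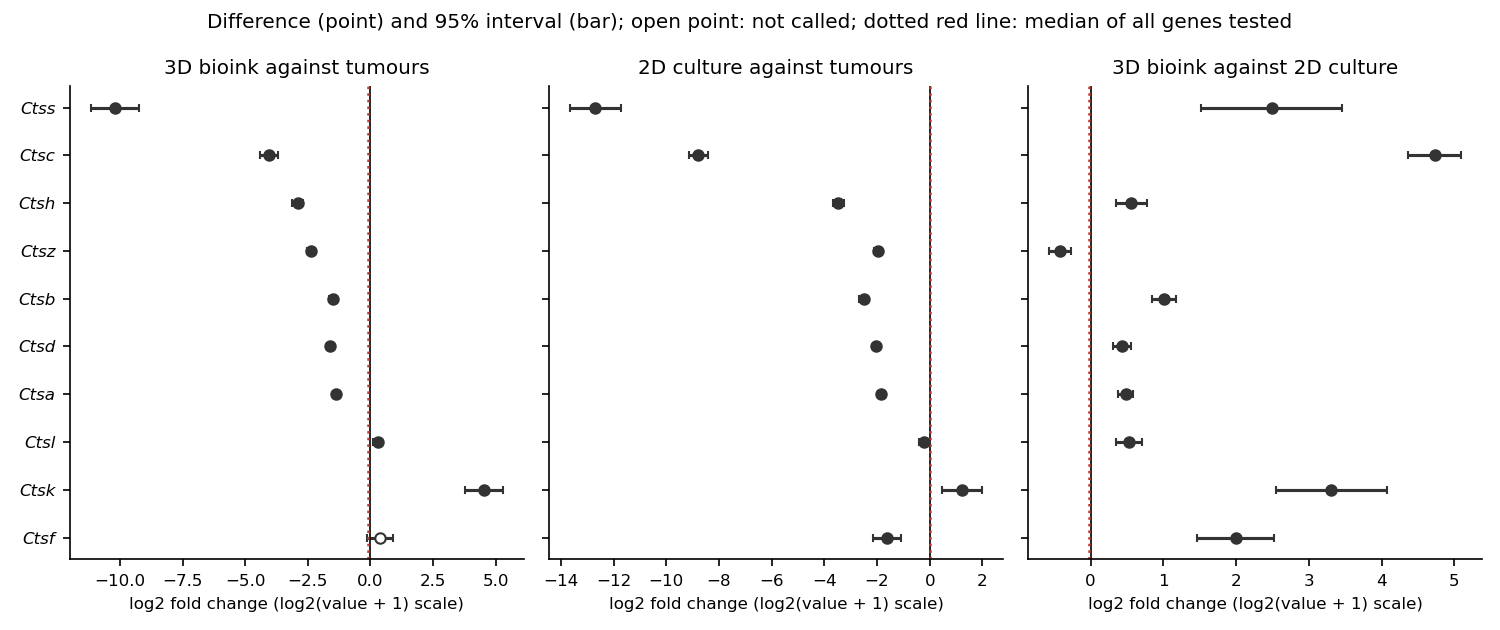
Log2 fold change of each cathepsin with its 95% confidence interval in the 3D bioink against the tumours, the 2D culture against the tumours and the 3D bioink against the 2D culture. Values run between -12.70 and 4.73, and Ctsl and Ctsf lie nearest to 0 in the 3D bioink against the tumours, at 0.30 and 0.39.

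The widely expressed lysosomal proteases Ctsb, Ctsd and Ctsa were lower in both cultures than in the tumours by smaller folds. Ctsb, which works both as an endopeptidase and as a dipeptidase from the C-terminal end, had 7366, 8790 and 9092 in the 3D bioink, 4193, 4173 and 4151 in the 2D culture, and 24170, 24260 and 22841 in the tumours. It was 2.82-fold lower in the 3D bioink (log2 fold change -1.50, SE 0.07, adjusted p = 1.23e-07) and 5.69-fold lower in the 2D culture (-2.51, adjusted p = 3.38e-09) than in the tumours. Ctsb lies at chromosome 14, 63122462 to 63145923. The 3D bioink held 2.02 times the mean of the 2D culture (1.01, adjusted p = 2.08e-06). Quantile normalisation made the difference between the 3D bioink and the tumours -0.996 on the log2 scale.

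Ctsd, the main aspartic protease of the lysosome, was the most abundant cathepsin of both cultures per transcript length, as given below. It had 7772, 7769 and 7636 in the 3D bioink, 6091, 5499 and 5641 in the 2D culture, and 25134, 22706 and 23006 in the tumours. It was 3.06-fold lower in the 3D bioink (log2 fold change -1.61, SE 0.06, adjusted p = 1.35e-08) and 4.11-fold lower in the 2D culture (-2.04, adjusted p = 2.03e-09) than in the tumours. Ctsd lies at chromosome 7, 142375911 to 142388038 (minus strand). The difference between the cultures was small, 1.35-fold in favour of the 3D bioink (0.43, adjusted p = 0.000100), and grew to 0.66 and 0.77 under equal upper quartiles and quantile normalisation.

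Ctsa, the protective protein that keeps the lysosomal enzymes Neu1 and Glb1 together in a complex, had 1949, 1983 and 2020 in the 3D bioink, 1400, 1408 and 1448 in the 2D culture, and 5214, 5069 and 5162 in the tumours. Its libraries lay close together within each group. The gene lies at chromosome 2, 164832873 to 164841032. It was 2.59-fold lower in the 3D bioink (log2 fold change -1.38, SE 0.04, adjusted p = 9.47e-09) and 3.63-fold lower in the 2D culture (-1.86, adjusted p = 9.29e-10) than in the tumours, and 1.40-fold higher in the 3D bioink than in the 2D culture (0.48, adjusted p = 1.03e-05).

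Ctsz, a carboxypeptidase also known as cathepsin X, lies at chromosome 2, 174427493 to 174439039 (minus strand), and was the one member lower in the 3D bioink than in the 2D culture. It had 1881, 2273 and 2061 in the 3D bioink, 2753, 2774 and 2781 in the 2D culture, and 10834, 11168 and 10340 in the tumours. The difference between the cultures was 1.34-fold (log2 fold change -0.42, SE 0.07, adjusted p = 0.000426). It depended on the scaling of the libraries: with equal totals or quantile normalisation it was -0.23, and with equal upper quartiles it was -0.19 and no longer called (adjusted p = 0.0787, over a range of 6.06e-06 to 0.0787 in all alternatives). Against the tumours Ctsz was 5.20-fold lower in the 3D bioink (-2.38, adjusted p = 3.86e-09) and 3.89-fold lower in the 2D culture (-1.96, adjusted p = 1.01e-08).

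Ctsl, a broad lysosomal endopeptidase, stayed close to the tumour level in both cultures. It had 4837, 5327 and 5626 in the 3D bioink, 3694, 3900 and 3337 in the 2D culture, and 4485, 4410 and 3945 in the tumours. Ctsl was 1.23-fold higher in the 3D bioink than in the tumours (log2 fold change 0.30, SE 0.08, adjusted p = 0.00845), and 0.54 to 0.63 under equal totals, equal upper quartiles or quantile normalisation. In the 2D culture it was 1.17-fold lower than in the tumours (-0.23, SE 0.08, adjusted p = 0.0323), a call lost in 8 of the 22 alternatives: under equal totals (adjusted p = 0.0967), equal upper quartiles (0.0809), quantile normalisation (0.0866) and eBayes without a trend (0.0789), and without replicate 3 of the 2D culture (-0.17, adjusted p = 0.122), without its replicate 1 (adjusted p = 0.0631), without tumour replicate 1 (adjusted p = 0.104) and without tumour replicate 2 (adjusted p = 0.0961). Between the cultures it was 1.44-fold higher in the 3D bioink (0.53, adjusted p = 0.000293). Ctsl, at chromosome 13, 64359337 to 64370890 (minus strand), shares sequence with its surroundings: of the 31-base words of its annotated transcripts, 28.1% also occur on the opposite strand, mostly in the antisense gene Gm47123, and 7.68% on its own strand, mostly in the pseudogene Gm49230. Ctsd shares 33.2% of its words with the gene model Gm49369 on its own strand, and Ctsa and Ctsb share 14.4% (Pltp and Neurl2) and 12.4% (Fdft1) with genes on the opposite strand, while Ctsf, Ctsk, Ctss and Ctsz share none. Whether reads were counted by strand is not given in the sources used here, so the values of Ctsl, Ctsa and Ctsb are uncertain to that extent. The words Ctsd shares are on its own strand, so counting by strand would not separate them.

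Ctsk, the collagen-cutting cathepsin best known from osteoclasts and also made by activated fibroblasts, was the only member higher than the tumours in both cultures. It had 420, 501 and 618 in the 3D bioink, 48, 51 and 52 in the 2D culture, and 19, 36 and 13 in the tumours. Its mean in the 3D bioink was 22.6-fold higher than in the tumours (log2 fold change 4.54, SE 0.34, adjusted p = 1.94e-06) and 10.2-fold higher than in the 2D culture (3.31, SE 0.34, adjusted p = 2.07e-05). In the 2D culture it was 2.22-fold higher than in the tumours (1.23, SE 0.34, adjusted p = 0.0112). Of 9 fibroblast markers, 6 were higher, 2 lower and 1 not called in the 3D bioink against the tumours, 4 were higher, 3 lower and 2 not called in the 2D culture against the tumours, and 8 were higher and 1 not called in the 3D bioink against the 2D culture. Their median log2 fold change was 2.46 in the 3D bioink and -0.09 in the 2D culture against the tumours. The 2 that were lower in the 3D bioink than in the tumours were Col3a1, a fibrillar collagen (-0.51, adjusted p = 9.74e-06), and Postn, the matrix protein periostin (-1.37, adjusted p = 0.00774). After quantile normalisation, or with a filter at a mean of 50, 1 fibroblast marker was called lower in each culture against the tumours. The fibroblast markers summed to 22175 to 23925 in the 3D bioink, 11890 to 12474 in the 2D culture and 13006 to 13807 in the tumours. Among them Dcn, a small proteoglycan of connective tissue, had 329, 405 and 389 in the 3D bioink, 3, 4 and 0 in the 2D culture, and 1, 0 and 11 in the tumours. Of 4 osteoclast markers tested, 3 were lower and 1 not called in the 3D bioink against the tumours, all 4 were lower in the 2D culture against the tumours, and 3 were higher in the 3D bioink than in the 2D culture, with sums of 212 to 265 in the 3D bioink, 73 to 94 in the 2D culture and 909 to 1284 in the tumours. The osteoclast phosphatase Acp5 had 3, 8 and 11 in the 3D bioink, 8, 5 and 5 in the 2D culture and 735, 419 and 546 in the tumours, and Dcstamp was listed at 0 in all 9 libraries. Atp6v0d2, of the same list, had 68, 88 and 82 in the 3D bioink, 8, 6 and 9 in the 2D culture, and 54, 57 and 55 in the tumours. Under equal totals or eBayes without a trend, 1 osteoclast marker was called higher in the 3D bioink than in the tumours. The part of either set of markers in the Ctsk differences was not tested.

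Ctsf, a papain-family cathepsin whose long propeptide holds a cystatin-like domain, was low throughout. It had 111, 119 and 110 in the 3D bioink, 34, 23 and 27 in the 2D culture, and 81, 80 and 99 in the tumours. The 3D bioink was 4.05-fold above the 2D culture (log2 fold change 2.00, SE 0.24, adjusted p = 5.57e-05) and the 2D culture 3.10-fold below the tumours (-1.61, SE 0.24, adjusted p = 0.000256). The gene lies at chromosome 19, 4855130 to 4860918. Every 3D bioink library was above every tumour library, but the difference was not called (0.39, SE 0.24, 95% interval -0.14 to 0.92, adjusted p = 0.174). It was called under equal totals (0.65, adjusted p = 0.0352) and equal upper quartiles (0.63, adjusted p = 0.0445).

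Ctsk (chromosome 3, 95499256 to 95509362) and Ctss, the members that moved furthest in opposite directions, are neighbours on the same strand, 17423 bases apart with no annotated gene between them (GENCODE M21). The genes around them were looked at after the values of the pair were known. Arnt, which lies before Ctsk and encodes a partner of bHLH-PAS transcription factors, had a log2 fold change of -0.07 in the 3D bioink against the tumours (adjusted p = 0.402) and 0.13 in the 2D culture against the tumours (adjusted p = 0.136). Golph3l, a Golgi protein gene beyond Ctss, had 0.25 (adjusted p = 0.127) and -0.15 (adjusted p = 0.393) in the same comparisons. Hormad1, between Ctss and Golph3l, had 0, 0 and 3 in the 3D bioink and 0 in every other library. Ensa, beyond Golph3l, had 1739 to 1817 in the 3D bioink, 1831 to 2016 in the 2D culture and 2285 to 2602 in the tumours. At the ends of the stretch, Setdb1 had 917 to 1123, 1249 to 1266 and 1039 to 1113 in that order, and Adamtsl4 227 to 334, 333 to 380 and 237 to 301. Mcl1, an anti-apoptotic gene further along, was lower, at -1.09 in the 3D bioink (adjusted p = 3.16e-07) and -1.29 in the 2D culture (adjusted p = 9.92e-08).

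**Figure D3:**
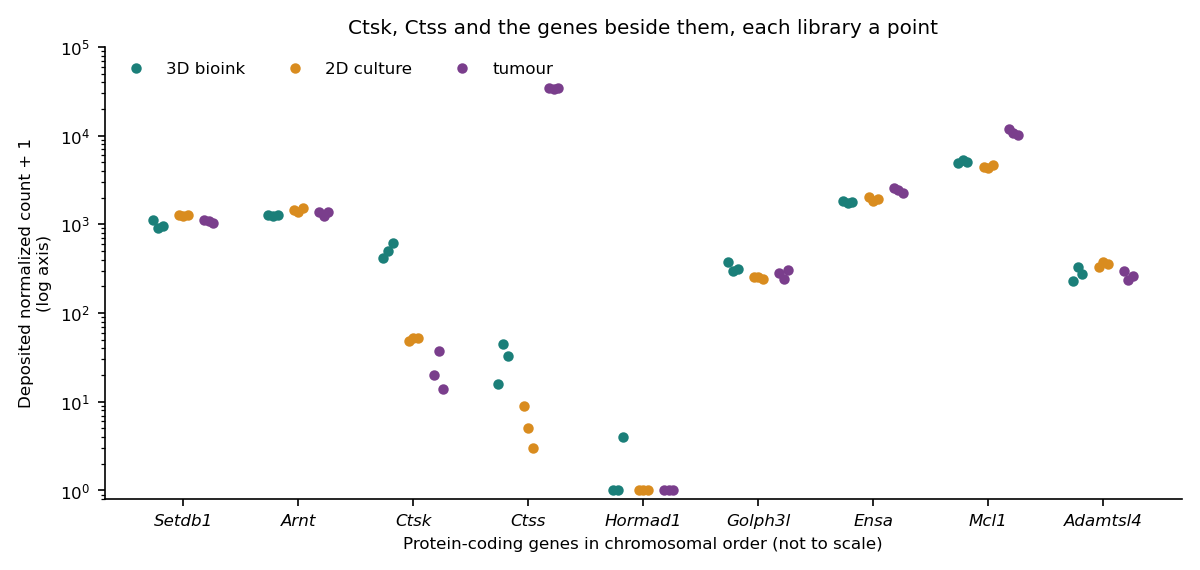
Deposited normalised count + 1 (log axis) of Ctsk, Ctss and the genes around them, in their order along chromosome 3 (not to scale). Each point is a library of the 3D bioink, the 2D culture or the tumours. Ctsk had 420 to 618 in the 3D bioink, 48 to 52 in the 2D culture and 13 to 36 in the tumours. Its neighbour Ctss had 15 to 44, 2 to 8 and 34029 to 34283 in that order. Arnt, on the other side of Ctsk, had 1247 to 1288, 1376 to 1543 and 1242 to 1395.

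The sequences just before the start of both genes, and of Ctsc and Ctsd, are shown because these are the genes that separate the groups most (Ctss, Ctsk, Ctsc) and the most abundant one in the cultures per kilobase of transcript (Ctsd). Each is the 250 bases before the start in RefSeq's table (GRCm38.p6), at chr3:95526536-95526785 (plus strand) for Ctss, chr3:95498960-95499209 (plus) for Ctsk, chr7:88277835-88278084 (plus) for Ctsc and chr7:142387828-142388077 (minus) for Ctsd. The Ctsd stretch lies partly inside the gene's GENCODE M21 span, which reaches 142388038, so the annotations place its start differently. Capitals mark matches to the motifs named after them.
Ctss: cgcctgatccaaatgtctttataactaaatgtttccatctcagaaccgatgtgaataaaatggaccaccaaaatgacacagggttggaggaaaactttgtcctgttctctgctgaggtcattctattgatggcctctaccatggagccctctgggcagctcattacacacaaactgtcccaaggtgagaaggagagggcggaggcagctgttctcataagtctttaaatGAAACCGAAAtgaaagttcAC
Ctsk: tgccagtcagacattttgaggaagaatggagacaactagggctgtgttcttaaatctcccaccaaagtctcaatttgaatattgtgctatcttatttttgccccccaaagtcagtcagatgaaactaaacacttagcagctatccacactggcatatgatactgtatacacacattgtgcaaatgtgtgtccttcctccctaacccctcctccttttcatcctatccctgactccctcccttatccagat
Ctsc: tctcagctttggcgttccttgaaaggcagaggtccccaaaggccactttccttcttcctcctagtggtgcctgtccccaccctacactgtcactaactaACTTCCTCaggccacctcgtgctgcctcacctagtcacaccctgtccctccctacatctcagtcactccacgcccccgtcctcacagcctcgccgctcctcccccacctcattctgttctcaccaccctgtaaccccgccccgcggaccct
Ctsd: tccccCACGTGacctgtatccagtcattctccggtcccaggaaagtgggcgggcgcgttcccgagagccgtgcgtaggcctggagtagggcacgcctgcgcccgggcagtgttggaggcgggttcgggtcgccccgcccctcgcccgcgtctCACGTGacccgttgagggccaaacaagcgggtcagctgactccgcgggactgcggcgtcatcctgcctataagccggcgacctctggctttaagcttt

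That table held 9 windows of 300 bases (250 before and 50 after the start) for 8 of the 10 genes, with none matched for Ctsb and Ctsh. Both strands were searched for 5 motifs. The ISRE-like motif (GAAA, any 2 bases, GAAA), in 3.44% of all 32851 windows, matched Ctss at bases -21 to -12 as GAAACCGAAA. The PU.1 motif GAGGAAGT, in 3.20% of windows, matched Ctss as its reverse complement from -2 to 6, so that only its first letters are in the stretch printed, and Ctsc from -151 to -144. The E-box CACGTG, in 7.15% of windows, matched Ctsd at -245 to -240 and -98 to -93, as well as Ctsa, Ctsl and Ctsf. The Ctsl window lies wholly inside the gene's GENCODE M21 span. For Ctsa the matches were in a window inside that span (164833523 to 164833822), and the window at the gene's GENCODE start held none. The CLEAR motif of lysosomal genes in its full palindrome, the E-box with GT before it and AC after it (0.326% of windows) and the AP-1 motif TGANTCA (7.81%) matched none of the 9, and Ctsk held none of the 5. The 250 bases of Ctsk held 43.2% G and C with 0 CG dinucleotides and those of Ctss 44.8% with 4, against 67.2% with 27 for Ctsd and a median of 52.4% with 6 over all windows. A match describes the letters of the window and nothing more.

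Per kilobase of transcript, the make-up of the cathepsin pool differed between the groups. Each value was divided by the length of the gene's principal transcript and set against the sum over the 10 genes in the same library. Ctsd led in the 3D bioink with 33.6% ± 1.93 of the pool, before Ctsl with 24.6% ± 0.78, Ctsb with 16.3% ± 1.01 and Ctsz with 13.3% ± 0.82 (SD, n = 3). In the 2D culture Ctsd made up 33.9% ± 1.37, Ctsz 24.2% ± 0.65, Ctsl 23.2% ± 1.56 and Ctsb 11.1% ± 0.18, and Ctsz and Ctsl overlapped. In the tumours Ctss led with 44.8% ± 0.97, before Ctsd with 19.7% ± 0.81, Ctsz with 13.3% ± 0.44, Ctsb with 8.91% ± 0.20 and Ctsl with 3.86% ± 0.20. Ctss, first in the tumours, was last in the 3D bioink at 0.204% and overlapped the lowest place of the 2D culture, where Ctsc had 0.0520% and Ctss 0.0429%. Ctsk was last in the tumours at 0.0266%, against 3.12% ± 0.48 in the 3D bioink and 0.419% ± 0.03 in the 2D culture. All other neighbours in each order were apart in all 3 libraries. Without division by length, which does not allow levels of different genes to be compared, Ctsb came first in the 3D bioink with 31.3%, before Ctsd with 28.9% and Ctsl with 19.6%, and in the 2D culture Ctsz, with 15.3%, came after Ctsd with 31.7%, Ctsb with 23.0% and Ctsl with 20.1%.

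With Ctss left out of the pool, the share of Ctsd was 33.6% in the 3D bioink, 33.9% in the 2D culture and 35.8% in the tumours. Ctsl still differed, with 24.7% ± 0.79 in the 3D bioink, 23.2% ± 1.57 in the 2D culture and 6.99% ± 0.27 in the tumours. Ctsz made up 13.3%, 24.2% and 24.1% in the 3D bioink, the 2D culture and the tumours. The share of Ctsl depends on the transcript chosen: with its longest annotated one (in place of the principal one of 1971 bases) it was 9.48% in the 3D bioink, 8.82% in the 2D culture and 1.28% in the tumours, out of all 10 genes.

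**Figure D4:**
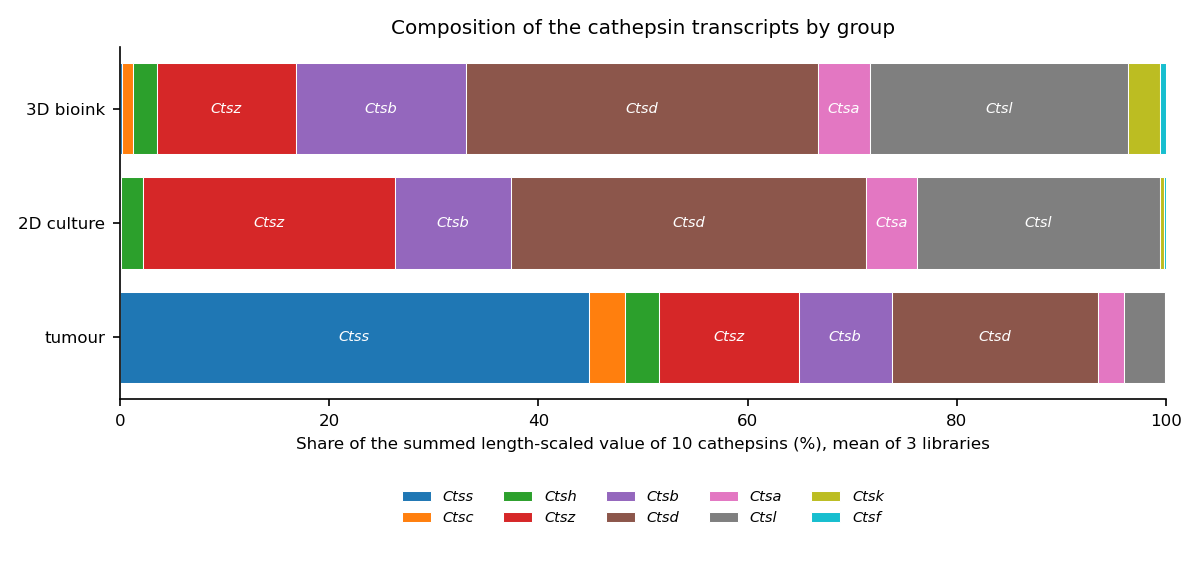
Share of each cathepsin in the sum of the 10, per kilobase of transcript, as the mean of 3 libraries. Each group is a stacked bar, with the 3D bioink at the top, the 2D culture in the middle and the tumours at the bottom. Ctss takes 44.8% of the tumour pool and 0.204% of that in the 3D bioink, where Ctsd (33.6%) and Ctsl (24.6%) lead. Lengths are those of the principal transcripts, and with the longest coding ones Ctsl came after Ctsb and Ctsz in the 3D bioink.

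Among the other transcripts, those whose log2 values followed each cathepsin most closely over the 9 libraries were found by Pearson's r among 10188 genes with a mean of at least 100. With 3 groups of 3, such an r mostly reads the order and spacing of the group means, and it is given as a description. Ctss was followed by Cyp4f18 (0.999), C1qc (0.998), a chain of complement C1q, and Tgfbi (0.998), a matrix protein. For Ctsk they were Smg1 (0.995), Rasa1 (0.993) and Jmy (0.991), whose differences were much smaller: Jmy had 2343, 2346 and 2415 in the 3D bioink, 1251, 1224 and 1227 in the 2D culture, and 894, 1051 and 956 in the tumours. Ctsd was followed most closely by Cst3 (0.998), which encodes cystatin C, an inhibitor of the cysteine cathepsins, and Ctsc by Pygl, Stat3 and C1ra. Ctsf was followed by Mxd4 (0.991) and Ctsl by Pttg1ip (0.976), the lowest of the 10 best matches.

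Of 13 other cathepsin genes in the table, 8 were listed at 0 in all 9 libraries, among them Ctsg of neutrophil granules, and 2 passed the filter. Ctso, a papain-family member, had 137, 227 and 206 in the 3D bioink, 71, 84 and 83 in the 2D culture, and 219, 257 and 338 in the tumours. It was higher in the 3D bioink than in the 2D culture (log2 fold change 1.22, adjusted p = 0.00133), lower in the 2D culture than in the tumours (-1.74, adjusted p = 0.000133), and not called between the 3D bioink and the tumours (-0.52, adjusted p = 0.0745), where the groups overlapped. That last difference was called under 3 of the 22 alternatives, among them those without 3D bioink replicate 2 (adjusted p = 0.0484) and without tumour replicate 1 (adjusted p = 0.0484). The other gene tested, Cts8, was not called in any comparison.

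Few inhibitors were detected well enough to test. Of 18 cystatins and stefins listed, 14 were in the table and 4 passed the filter; 1 was higher, 2 were lower and 1 was not called in the 3D bioink against the tumours (median log2 fold change -0.67, against -0.11 over all genes), and 3 were lower and 1 not called in the 2D culture against the tumours. Cst3, cystatin C, had 1756, 1750 and 1794 in the 3D bioink, 1391, 1323 and 1326 in the 2D culture, and 4515, 4593 and 4542 in the tumours, with log2 fold changes of -1.36 (adjusted p = 1.22e-08) and -1.76 (adjusted p = 1.60e-09) in the 3D bioink and the 2D culture against the tumours. Cst7, cystatin F, which inhibits Ctsc and other cathepsins inside leukocytes, had 0, 1 and 4 in the 3D bioink, 1, 0 and 6 in the 2D culture, and 548, 423 and 564 in the tumours. It passed the filter only through the tumours, so the filter itself favoured a lower call. Csta1 did not pass, with 14, 10 and 10 in the 3D bioink, 1, 3 and 2 in the 2D culture, and 0, 3 and 8 in the tumours. Cstb, the cytosolic inhibitor stefin B, had 893, 637 and 840 in the 3D bioink and 820, 757 and 722 in the tumours and did not pass the test there (0.03, adjusted p = 0.836), while it was lower in the 2D culture, with 527, 497 and 531, than in the tumours (-0.56, adjusted p = 0.00315). Cst6, cystatin M, was called higher in the 3D bioink than in the tumours (0.77, adjusted p = 0.0331) although the groups overlapped, with 200, 174 and 168 against 172, 84 and 80. That call was lost without any 1 of the 3 replicates of the 3D bioink (adjusted p = 0.0823, 0.0628 and 0.0575) without tumour replicate 2 (0.109) or 3 (0.112), and when only the 6 libraries compared were fitted (0.0653).

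The genes that sort and activate lysosomal enzymes split. Of 8, 3 were higher and 5 lower in the 3D bioink against the tumours, with the same counts in the 2D culture against the tumours. Lgmn, the asparaginyl protease legumain that helps to process cathepsins, had 618, 666 and 550 in the 3D bioink, 501, 516 and 484 in the 2D culture, and 12504, 12681 and 13334 in the tumours (log2 fold changes -4.39 and -4.68, adjusted p = 2.40e-10 and 8.03e-11). The 2 mannose 6-phosphate receptors went opposite ways. M6pr, the cation-dependent receptor, was lower, with 1950, 2090 and 1983 in the 3D bioink, 2753, 2823 and 2669 in the 2D culture, and 4285, 4440 and 4254 in the tumours (-1.11 and -0.65, adjusted p = 6.68e-08 and 2.18e-06). Igf2r, the cation-independent receptor, was higher, with 1064, 936 and 1029 in the 3D bioink, 720, 721 and 689 in the 2D culture, and 457, 480 and 413 in the tumours (1.16 and 0.66, adjusted p = 1.52e-06 and 9.35e-05). Enzymes that make the mannose 6-phosphate tag also split: Gnptab, the catalytic precursor of the phosphotransferase, was higher in both cultures (0.58 and 1.14), while Gnptg, its gamma subunit (-0.83 and -1.02), and Nagpa, which uncovers the tag (-1.99 and -1.19), were lower.

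Partners and substrates of the cathepsins were tested in 5 genes, of which 3 were lower and 2 not called in the 3D bioink against the tumours, all 5 were lower in the 2D culture against the tumours, and all 5 were higher in the 3D bioink than in the 2D culture. The call of Glb1 between the cultures (log2 fold change 0.25, adjusted p = 0.0435) was lost without replicate 1 or 3 of the 3D bioink, any 1 replicate of the 2D culture or replicate 2 of the tumours (adjusted p up to 0.133), and in 10 of the 22 alternatives in all, among them the fit of the 6 libraries compared (0.0588), that with no filter (0.0518) and robust eBayes (0.0511). Psap, the saposin precursor cut by Ctsd, had 16164, 15761 and 15831 in the 3D bioink, 10703, 10151 and 10072 in the 2D culture, and 41834, 39550 and 37552 in the tumours. Grn, the progranulin gene, had 7370, 7977 and 7614 in the 3D bioink, 5357, 5107 and 5596 in the 2D culture, and 23815, 23648 and 22787 in the tumours. Both were lower in the cultures, Psap by log2 fold changes of -1.32 and -1.94 and Grn by -1.61 and -2.13. Cd74, the invariant chain that Ctss trims, had 29, 41 and 26 in the 3D bioink, 4, 8 and 3 in the 2D culture, and 66127, 65850 and 60832 in the tumours. Of the enzymes that Ctsa protects, Neu1 had 1150, 925 and 889 in the 3D bioink against 1095, 832 and 869 in the tumours, not called (0.09, adjusted p = 0.611), and was lower in the 2D culture, with 675, 531 and 585 (-0.64 against the tumours, adjusted p = 0.00328).

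Of 7 transcription factors of lysosomal and myeloid genes, 5 were lower and 2 not called in the 3D bioink against the tumours, and all 7 were lower in the 2D culture against the tumours. Spi1 and Tfec passed the filter only through the tumours, so the filter itself favoured a lower call for them. Spi1, which encodes PU.1, the regulator of myeloid genes, had 0, 7 and 3 in the 3D bioink, 1, 7 and 3 in the 2D culture, and 1104, 995 and 1249 in the tumours (log2 fold changes -8.45 and -8.12, adjusted p = 6.44e-06 and 9.81e-06). Irf8, its partner in myeloid cells, had 19, 10 and 10 in the 3D bioink, 1, 1 and 0 in the 2D culture, and 4649, 4486 and 4429 in the tumours. Tfec, of the same list, had 0, 2 and 0 in the 3D bioink, 0 in every 2D culture library, and 39, 73 and 39 in the tumours. Tfeb, Tfe3 and Mitf differed far less than Spi1 and Irf8. Tfeb had 207, 257 and 263 in the 3D bioink, 210, 149 and 171 in the 2D culture, and 304, 252 and 257 in the tumours, with a log2 fold change of -0.16 in the 3D bioink against the tumours (adjusted p = 0.416) and -0.62 in the 2D culture against the tumours (adjusted p = 0.0105, and 0.0660 under quantile normalisation). Mitf, a relative of Tfeb, had 210, 149 and 175 in the 3D bioink, 52, 40 and 57 in the 2D culture, and 287, 213 and 241 in the tumours. It was higher in the 3D bioink than in the 2D culture (1.82, adjusted p = 5.19e-05), lower in the 2D culture than in the tumours (-2.30, adjusted p = 1.00e-05), and not called between the 3D bioink and the tumours (-0.47, adjusted p = 0.0765), where array weights (adjusted p = 0.0456) or the fit without 3D bioink replicate 1 (adjusted p = 0.0441) called it lower.

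**Figure D5:**
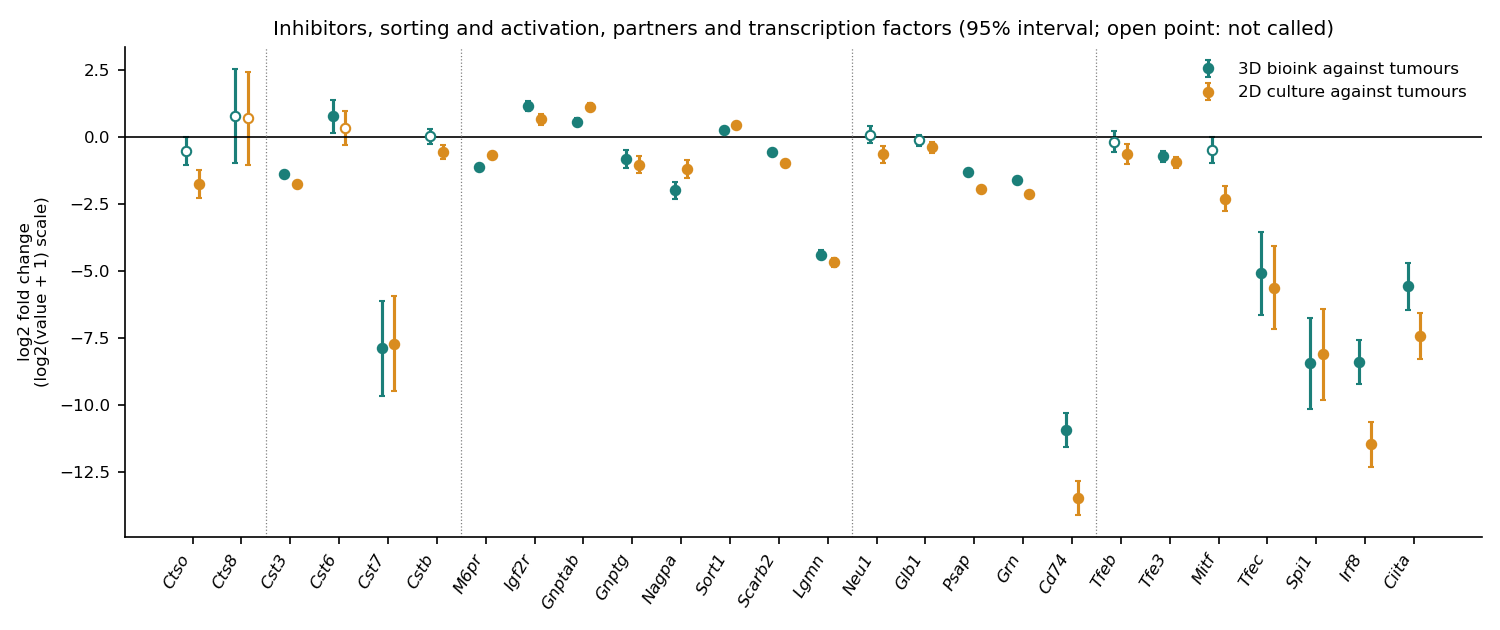
Log2 fold change of the tested genes of each pathway list in the 3D bioink and in the 2D culture, each against the tumours. Bars are 95% confidence intervals. Lgmn stands at -4.39 and -4.68 against the tumours and the receptors M6pr and Igf2r lie on opposite sides of 0.

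Between the cultures, the cathepsins that differed most were not the most abundant. Ctsc (28.5-fold), Ctsk (10.2-fold), Ctss (6.50-fold) and Ctsf (4.05-fold) were higher in the 3D bioink, with no culture library above 618. Ctsd, Ctsb, Ctsl and Ctsa, with no culture library below 1400, were higher by 1.35-fold to 2.02-fold. Low values did not always go with large differences: Ctsh, at 244 to 423 in the cultures, was only 1.47-fold higher. Ctsz, at 1881 to 2781, was 1.34-fold lower. Cell markers were also counted between the cultures, where 27.0% of all genes were called higher and 32.2% lower in the 3D bioink. Of 12 macrophage and monocyte markers, 9 were higher, 1 lower and 2 not called. Of 12 microglial markers, 3 were higher and 9 not called, near the share of all genes called higher. Of 4 pericyte markers tested, 3 were higher and 1 not called. Pericyte sums were 2564 to 2812 in the 3D bioink and 926 to 946 in the 2D culture. Of 7 astrocyte markers, 3 were higher and 4 not called. Of 5 oligodendrocyte markers, 1 was higher, 1 lower and 3 not called. Of 3 neuronal markers tested, 2 were higher and 1 lower. With equal upper quartiles, or without replicate 1 of the 3D bioink, 5 microglial markers were higher, and after quantile normalisation 5 macrophage and monocyte markers were. Between the cultures, 2 microglial markers were called lower after quantile normalisation and 1 with array weights, against 0 in the values as deposited. Their part in the cathepsin differences was not tested. Replicate 1 of the 3D bioink was the lowest of its group for 7 of the 10 cathepsins, and leaving it out changed no cathepsin's call in any comparison that involves the 3D bioink.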

How the data were processed

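RNA was measured by bulk sequencing of libraries made with a directional kit from 25 to 75 ng of total RNA (14 PCR cycles), according to the labels. The authors deposited a score for each symbol in each library: normalized counts, rounded to whole numbers. The submitters' processing notes name kallisto, RSEM, DESeq2 1.24.0, DESeq and mm10, without role or order. The read depth is unknown, so no counting interval is given.

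Values were analysed as log2(value + 1). Genes whose mean over all libraries reached 10 were fitted in 1 limma model (version 3.58.1, R 4.3.3; eBayes with a trend) with a mean for each of the 3 groups, and checked on simulated data. Benjamini-Hochberg adjustment ran over all 13773 genes, with a threshold of 0.05. Lengths and positions come from GENCODE M21 (GRCm38) and promoters from RefSeq. All 10 cathepsins are named, with members of 5 pathway lists. Marker lists are given for microglia, macrophages and monocytes, dendritic cells, T and NK cells, neutrophils, B cells and endothelial cells. Further lists are those for fibroblasts, osteoclasts, pericytes, astrocytes, oligodendrocytes and neurons. The members and lists were chosen with earlier results of these data known. The 22 alternatives covered pseudocount, filter, scaling, model, replicate block and leaving out each library. The transcript used for lengths was varied after the data were seen.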

Additional observations from a re-analysis of the deposited data

How the results depend on the processing

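The 30 log2 fold changes of the 10 cathepsins were recomputed under 22 alternatives. Of these 660 values, 649 kept their direction and their side of the threshold, 9 lost a call, 2 gained one and 0 changed sign. The changes concerned Ctsl (8 calls lost), Ctsz (1 lost) and Ctsf (2 gained), as given with those genes. With equal upper quartiles the count of cathepsins lower in the 3D bioink than in the 2D culture was 0 in place of 1; the adjusted p of Ctsz was then 0.0787. Of the counts of cathepsins called, no other moved by more than 1.5 times under any alternative, and leaving out 1 library moved no cathepsin's log2 fold change by more than 1.5 times, though it moved the ratio of group means of Ctss, as given there.

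Scaling moved sizes more than calls. Quantile normalisation gave -0.95 for Ctsf in the 2D culture against the tumours and 0.80 for Ctsl and 1.58 for Ctss in the 3D bioink against the 2D culture. A pseudocount of 10 gave -11.21 for Ctss and -7.92 for Ctsc in the 2D culture against the tumours, and 3.91 for Ctsc in the 3D bioink against the 2D culture. The cause was not tested. Without division by length, the share of Ctss in the tumours was 31.1%.

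Same-numbered libraries did not deviate together (correlations of deviations between -0.03 and 0.08), so the numbers were not taken as pairs. With the replicate number as a block, 3682 genes were higher and 5113 lower in the 3D bioink against the tumours, and the call of none of the 10 cathepsins changed. Among the other genes, Ctso was then called lower in the 3D bioink than in the tumours (-0.52, adjusted p = 0.0391), and the calls between the cultures were lost for Glb1 (adjusted p = 0.0626), Tfeb (0.0608) and Tfe3 (0.0720).

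Among the pathway genes, 24 of 1710 recomputed values changed sign, none of them called after the change, and 1 (Tfec) fell to 0. In the 3D bioink against the tumours, under equal totals, equal upper quartiles and quantile normalisation, Glb1 was 0.136, 0.112 and 0.042 and Tfeb 0.098, 0.074 and 0.069. In the 3D bioink against the 2D culture, Sort1 was 0.013, 0.046 and 0.010 in that order. Quantile normalisation gave -1.04 for Cts8 in the 3D bioink against the 2D culture, and array weights gave 1.03 for Cst7 in the same comparison and -0.022 for Neu1 in the 3D bioink against the tumours. The other sign changes came with leaving out 1 library. The values then ranged in the 3D bioink against the tumours from -0.065 to 0.178 for Cstb, -0.029 to 0.207 for Neu1 and -0.145 to 1.31 for Cts8, and in the 2D culture against the tumours from -0.232 to 1.22 for Cts8. In the 3D bioink against the 2D culture they ranged from -0.168 to 0.417 for Cts8, -0.796 to 0.607 for Cst7, -1 to 0.50 for Spi1 and 0 to 0.792 for Tfec.

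The read depth is unknown, so how far low values such as those of Ctss in the cultures are limited by depth cannot be given. With 3 libraries a group, samples standing apart within a group were not searched for.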
